A study of Mus musculus with 6 samples.

Results

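The genes described here are the ones that let a neuron make and package GABA, and the transcription factors that mark the GABAergic interneuron lineage. They were chosen by name as 3 genes of GABA synthesis and vesicular transport (Gad1, Gad2 and Slc32a1) and 5 transcription factor genes (Dlx1, Dlx2, Dlx5, Dlx6 and Lhx6). All 8 were found among the 55471 gene identifiers of the count table, and all 8 passed the filter on low counts that left 16562 genes for testing. RNA was sequenced from primary cortical neurons of CD1 mouse embryos taken at E14.5-15 and kept in culture for 11 days. On day 6 one set of cultures received lentivirus for a short hairpin RNA against Opa1 (shOpa1, labelled as an Opa1 knock-down), and the other set a control short hairpin (shControl, labelled as wild type). Both groups were exposed to 2 uM cytosine arabinoside, which stops dividing cells, and each group held 3 libraries described as biological replicates.

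In the cortex most inhibitory neurons are born in the ganglionic eminences of the ventral forebrain and migrate into the cortical wall. DLX1, DLX2, DLX5 and DLX6 are homeodomain proteins of ventral forebrain progenitors and young interneurons, and their genes lie as neighbouring pairs, Dlx1 with Dlx2 and Dlx6 with Dlx5. LHX6 is a LIM homeodomain protein of interneurons from the medial ganglionic eminence, among them the somatostatin and parvalbumin classes. In the mature cell GAD67 (from Gad1) and GAD65 (from Gad2) make GABA from glutamate, GAD67 through the cytoplasm and GAD65 chiefly at nerve endings, and VGAT (from Slc32a1) loads GABA into synaptic vesicles. The comparison asks how the transcripts of cortical neurons differ when Opa1, a GTPase that fuses inner mitochondrial membranes, is depleted.

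The libraries held between 24676709 and 32961580 counts. Opa1 itself stood at 8.50 to 10.2 CPM (reads of a gene relative to the library total, scaled by the TMM method) in shOpa1 and at 201.8 to 204.6 CPM in shControl. Libraries with the same replicate number deviated alike from their group means, and replicate 3 of either group differed from replicates 1 and 2. Values are therefore also given within replicate numbers. Transcripts of inhibitory and of excitatory cortical neurons were both detected. In shControl the summed level of the 8 genes was 1872 to 1940 CPM and that of 12 markers of excitatory cortical neurons 1074 to 1149 CPM. Per length of exon, Gad1 averaged 116.8 ± 3.79 RPKM (SD, n = 3) in shControl and the vesicular glutamate transporter gene Slc17a7 75.5 RPKM.

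Among the 8 genes, 4 were lower in shOpa1 (Slc32a1, Dlx1, Dlx5 and Lhx6), 1 was higher (Gad2) and 3 did not pass the test (Gad1, Dlx2 and Dlx6). The test was edgeR's quasi-likelihood test with Benjamini-Hochberg adjustment over all 16562 genes at 0.05, which called 20.0% of all tested genes lower, 18.9% higher and 38.9% in either direction. These were 3312 genes lower and 3130 higher, against 2500 lower and 4487 higher when libraries were scaled by their totals alone. No change among the 8 reached 2-fold, where 5.65% of tested genes were called lower by at least that much, and the median log2 fold change was -0.43, against -0.01 over all tested genes. In 7 of the 8 genes every shOpa1 library lay below every shControl library, as it did for 26.0% of tested genes, and in the other one, Gad2, every shOpa1 library lay above, as for 25.8%. With the replicate number as a block Gad1 and Dlx2 were also called lower, giving 6 lower and 1 higher, where that fit called 30.7% of tested genes lower and 28.8% higher. The authors' deposited table, whose model terms are not given in the sources used here, also lists 6 of them as lower and 1 as higher, where it calls 20.7% of its genes lower and 20.2% higher. In bulk RNA fewer interneurons and less of a transcript per interneuron cannot be told apart.

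**Figure D1:**
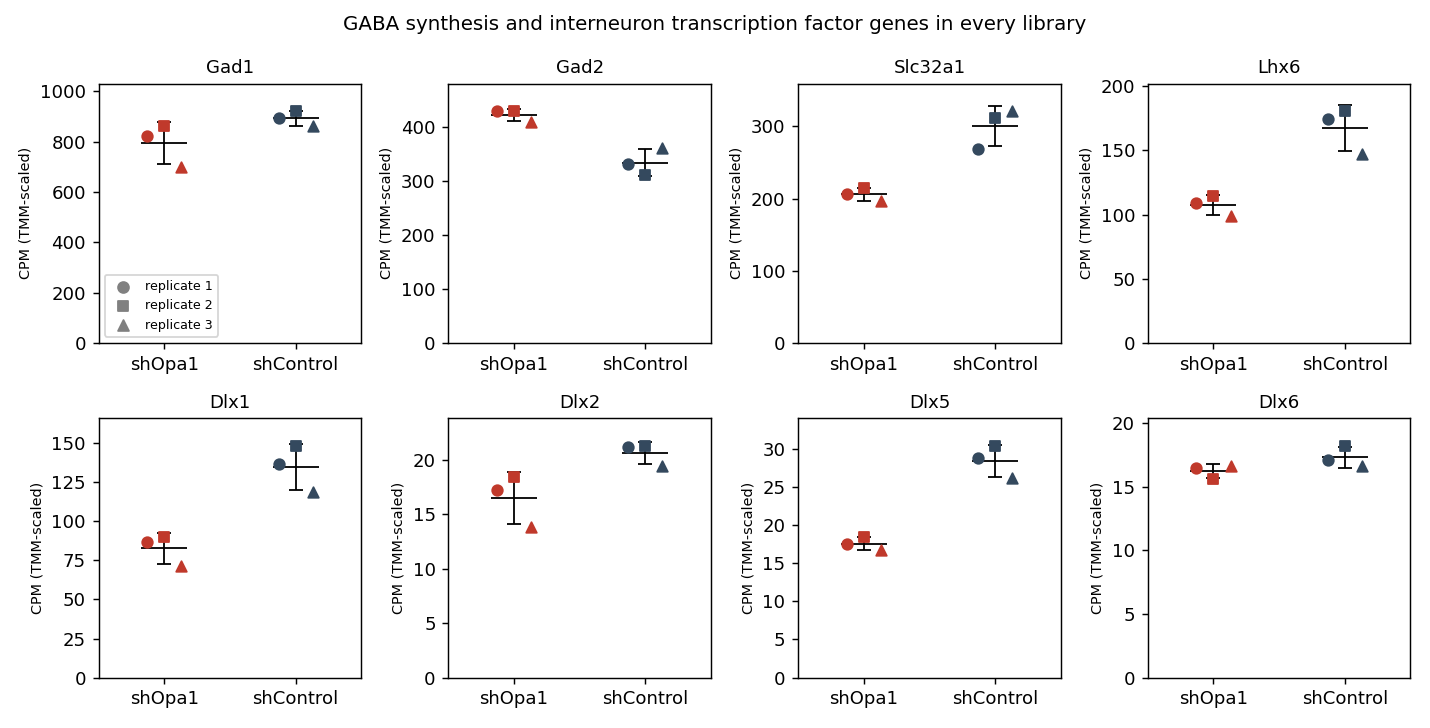
CPM (y axis, TMM-scaled, starting at 0) of the 8 genes in each library, with shOpa1 at the left and shControl at the right of each panel. Symbols mark the replicate number and black bars the mean ± SD (n = 3). Gad2 is higher in all 3 shOpa1 libraries, and Slc32a1, Lhx6, Dlx1 and Dlx5 are lower in all 3.

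Of the GABA-synthesising enzymes, Gad2 rose and Gad1 did not pass the test. Gad2 (ENSMUSG00000026787, chromosome 2 from 22622205 to 22693874, plus strand, GRCm38) had 429.7, 429.6 and 409 CPM in shOpa1 replicates 1 to 3, against 331, 311 and 362 CPM in shControl. The groups did not overlap, and the lowest shOpa1 library was the one numbered 3, where shControl was highest. The means were 423 ± 11.7 CPM in shOpa1 and 335 ± 25.3 CPM in shControl (SD, n = 3 each). The fitted log2 change was 0.34, SE 0.0694, a 1.26-fold rise (edgeR quasi-likelihood test, adjusted p = 0.0078). Within replicate numbers 1, 2 and 3 the log2 ratio was 0.38, 0.46 and 0.18.

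Gad1 (ENSMUSG00000070880, chromosome 2 from 70553072 to 70602014, plus strand), the more abundant of the enzymes, had 823, 859.8 and 698 CPM in shOpa1 and 895, 919.7 and 862 CPM in shControl. All 3 shOpa1 libraries lay below the lowest shControl library, the one numbered 3 by the widest margin. The means were 794 ± 84.6 CPM in shOpa1 and 892 ± 29.0 CPM in shControl (SD, n = 3 each). The fitted log2 change was -0.17, SE 0.0857 (edgeR adjusted p = 0.161), and with the replicate block it was -0.17 at an adjusted p of 0.00925. Exons of Gad1 and Gad2 overlap no other annotated gene.

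Slc32a1 (ENSMUSG00000037771, chromosome 2 from 158610767 to 158615748, plus strand), the vesicular GABA transporter gene, fell. It had 207, 214 and 196 CPM in shOpa1, against 269, 311 and 321 CPM in shControl. The groups did not overlap, and the gap was widest between the libraries numbered 3. The means were 206 ± 9.26 CPM in shOpa1 and 300.3 ± 27.3 CPM in shControl (SD, n = 3 each), a fitted log2 change of -0.55, SE 0.0801 (edgeR adjusted p = 0.00192). Slc32a1 shares 24.9% of its exon bases with Gm14205 on the opposite strand. Under the counting options used, reads over bases shared by 2 genes are assigned to neither, so the level of Slc32a1, also per length, may be too low by an unknown amount.

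Ratios taken inside each library show how unequally the 3 genes differed, free of the scaling between libraries. The Gad1 to Gad2 ratio of counts was 1.92, 2.00 and 1.71 in shOpa1, against 2.70, 2.95 and 2.38 in shControl. The Gad2 to Slc32a1 ratio was 2.08, 2.00 and 2.09 in shOpa1, against 1.23, 1.00 and 1.13 in shControl. Neither ratio overlapped between groups. On the log2 scale the difference, shOpa1 minus shControl, was -0.51 for Gad1 to Gad2 and 0.88 for Gad2 to Slc32a1. For each ratio the two-sided exact permutation test gave p = 0.1, the smallest value that 3 libraries against 3 allow, and 0.1 also after Benjamini-Hochberg adjustment over the 4 ratios tested. Any ratio without overlap gives this p, and the tests were chosen after the values were seen, so the p adds no support. How often other gene pairs lack overlap was not tested. Per length of exon, Gad1 stood highest in shOpa1 at 104 ± 11.1 RPKM, and the ranges of Slc32a1 (73.5 ± 3.31 RPKM) and Gad2 (72.0 ± 1.99 RPKM) overlapped (SD, n = 3 each). In shControl the order was Gad1 (116.8 ± 3.79 RPKM), Slc32a1 (107 ± 9.78 RPKM) and Gad2 (57.0 ± 4.31 RPKM), with the ranges of Gad1 and Slc32a1 overlapping (SD, n = 3 each).

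The promoter windows of Gad1 and Gad2 are shown because the ratio of these enzymes, which share a reaction, differed between the groups. Each window runs from 250 bases before to 50 after a gene start in RefSeq (GRCm38.p6), written 5′ to 3′ on the gene's strand. Of the 8 genes 6 have such a window, and Dlx5 and Dlx6 have none. Capitals mark matches on either strand to TAATTA or TAATTG, cores bound by many homeodomain proteins, to TATAAA, the TATA box, or to TTGCATCA, a composite site of C/EBP and ATF factors. No match to one motif overlapped a match to another in any window of the 8 genes or their noncoding neighbours.
Gad1, chr2:70561879-70562178, plus strand: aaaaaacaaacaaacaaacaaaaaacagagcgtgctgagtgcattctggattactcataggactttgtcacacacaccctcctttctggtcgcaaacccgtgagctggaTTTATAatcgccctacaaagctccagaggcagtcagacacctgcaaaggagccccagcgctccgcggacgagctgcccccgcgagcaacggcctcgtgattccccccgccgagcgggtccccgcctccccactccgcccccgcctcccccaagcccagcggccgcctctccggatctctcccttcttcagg
Gad2, chr2:22622077-22622376, plus strand: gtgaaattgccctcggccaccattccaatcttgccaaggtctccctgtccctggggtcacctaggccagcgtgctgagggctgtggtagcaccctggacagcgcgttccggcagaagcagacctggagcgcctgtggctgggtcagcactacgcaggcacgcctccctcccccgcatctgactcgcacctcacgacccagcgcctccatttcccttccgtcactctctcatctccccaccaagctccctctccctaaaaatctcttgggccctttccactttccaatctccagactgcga
Gad1 holds 1 TATAAA match, a motif in 13.6% of all 32851 windows of this length, and Gad2 holds no match to any of the 4. GC content is 60.0% for Gad1 and 61.3% for Gad2, against a median of 52.7% over all windows. TTGCATCA, present in 0.895% of all windows, was in 0 windows of the 8 genes. A match is a description of these letters, not a measured binding site, and the lack of one covers this window alone.

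**Figure D2:**
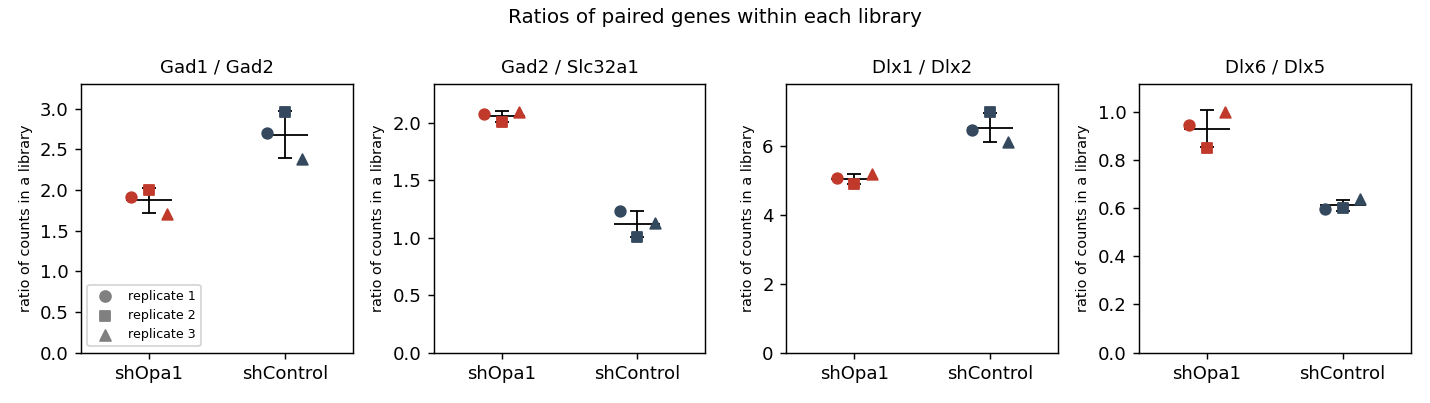
Ratio of counts (y axis, starting at 0) of 4 gene pairs within each library, with shOpa1 at the left and shControl at the right of each panel. Symbols mark the replicate number and black bars the mean ± SD (n = 3). In none of the 4 panels do the groups overlap: Gad1 to Gad2 and Dlx1 to Dlx2 are lower in shOpa1, and Gad2 to Slc32a1 and Dlx6 to Dlx5 are higher. How often other gene pairs lack overlap was not tested.

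Among the transcription factors, Dlx1, Dlx5 and Lhx6 fell by like amounts, and Dlx2 and Dlx6 did not pass the test. Lhx6 (ENSMUSG00000026890, chromosome 2 from 36081953 to 36105408, minus strand) had 109, 115 and 98.6 CPM in shOpa1, against 175, 180.4 and 147 CPM in shControl. The groups did not overlap, and in both of them the library numbered 3 was the lowest. The means were 107 ± 8.08 CPM in shOpa1 and 167 ± 17.9 CPM in shControl (SD, n = 3 each). The fitted log2 change was -0.64, SE 0.0963 (edgeR adjusted p = 0.00214), and within replicate numbers it was -0.68, -0.66 and -0.58.

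Dlx1 (ENSMUSG00000041911, chromosome 2 from 71528113 to 71533981, plus strand) had 87.0, 89.9 and 71.5 CPM in shOpa1, against 137, 148 and 119 CPM in shControl. Again the groups did not overlap and the libraries numbered 3 were the lowest of each group. The means were 82.8 ± 9.85 CPM in shOpa1 and 134.5 ± 14.7 CPM in shControl (SD, n = 3 each), a fitted log2 change of -0.70, SE 0.114 (edgeR adjusted p = 0.0029). Its partner Dlx2 (ENSMUSG00000023391, 71543408 to 71546754, minus strand), whose annotated end lies 9426 bases from that of Dlx1, had 17.2, 18.4 and 13.8 CPM in shOpa1, against 21.1, 21.2 and 19.4 CPM in shControl. The 3 shOpa1 libraries were the 3 lowest. For Dlx2 the fitted log2 change was -0.32, SE 0.121 (edgeR adjusted p = 0.0722), and it was -0.33 at an adjusted p of 0.00328 with the replicate block. The Dlx1 to Dlx2 ratio of counts was 5.05, 4.88 and 5.19 in shOpa1, against 6.47, 6.97 and 6.12 in shControl. The groups did not overlap, with a log2 difference of -0.37 (two-sided exact permutation test, p = 0.1). Any ratio without overlap gives this p, so it adds no support.

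The Dlx1 and Dlx2 windows are shown as those of a neighbouring pair, under the same rules for capitals. Dlx1 passed the test with and without the replicate block, and Dlx2 of these fits only with it.
Dlx1, chr2:71529195-71529494, plus strand: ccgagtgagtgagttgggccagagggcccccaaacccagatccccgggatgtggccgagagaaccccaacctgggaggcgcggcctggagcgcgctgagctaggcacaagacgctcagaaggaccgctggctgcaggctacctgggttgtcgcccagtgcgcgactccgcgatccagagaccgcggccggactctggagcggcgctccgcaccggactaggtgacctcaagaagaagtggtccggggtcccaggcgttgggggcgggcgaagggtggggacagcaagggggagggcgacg
Dlx2, chr2:71546705-71547004, minus strand: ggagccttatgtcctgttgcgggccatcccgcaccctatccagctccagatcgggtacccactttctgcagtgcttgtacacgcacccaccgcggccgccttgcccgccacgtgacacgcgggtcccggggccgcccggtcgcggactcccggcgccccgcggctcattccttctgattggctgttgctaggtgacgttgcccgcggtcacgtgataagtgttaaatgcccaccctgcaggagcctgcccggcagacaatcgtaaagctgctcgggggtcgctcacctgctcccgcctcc
Neither window holds a match to the 4 motifs. Their GC content of 69.3% for Dlx1 and 66.3% for Dlx2 is above the median of all windows. Among the 3 windows of Lhx6 only the one at chr2:36104011-36104310 had matches, 1 to TAATTG, found in 8.0% of all windows, and 1 to TATAAA.

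At the other pair Dlx5 passed the test and Dlx6 did not. Dlx5 (ENSMUSG00000029755, chromosome 6 from 6877805 to 6882085, minus strand) had 17.5, 18.4 and 16.7 CPM in shOpa1, against 28.8, 30.3 and 26.1 CPM in shControl. Every shOpa1 library was below every shControl library by a wide margin. The means were 17.5 ± 0.856 CPM in shOpa1 and 28.4 ± 2.13 CPM in shControl (SD, n = 3 each), a fitted log2 change of -0.70, SE 0.0878 (edgeR adjusted p = 0.00103). Dlx6 (ENSMUSG00000029754, 6863334 to 6868568, plus strand), whose end lies 9236 bases from that of Dlx5, had 16.5, 15.6 and 16.6 CPM in shOpa1, against 17.1, 18.2 and 16.7 CPM in shControl. The libraries numbered 3 were almost equal, and the fitted log2 change was -0.09, SE 0.083 (edgeR adjusted p = 0.418). The sign of the Dlx6 value turned to 0.03 when libraries were scaled by their totals alone. The Dlx6 to Dlx5 ratio of counts was 0.945, 0.848 and 0.996 in shOpa1, against 0.595, 0.601 and 0.638 in shControl, without overlap. The log2 difference was 0.60 (two-sided exact permutation test, p = 0.1). As above, the lack of overlap alone gives this p, which adds no support.

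Per length of exon the order of the factors in shOpa1 was Lhx6 (22.4 ± 1.68 RPKM), Dlx1 (15.3 ± 1.83 RPKM), Dlx5 (7.74 ± 0.378 RPKM), Dlx6 (6.84 ± 0.237 RPKM) and Dlx2 (5.77 ± 0.839 RPKM), with no overlap between neighbours (SD, n = 3 each). In shControl the order was Lhx6 (34.8 ± 3.73 RPKM), Dlx1 (24.9 ± 2.72 RPKM), Dlx5 (12.6 ± 0.939 RPKM), Dlx6 (7.29 ± 0.335 RPKM) and Dlx2 (7.21 ± 0.361 RPKM), where the ranges of Dlx6 and Dlx2 overlapped and those of the other neighbours did not (SD, n = 3 each). Counts behind these values were never below 408 in a library.

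**Figure D3:**
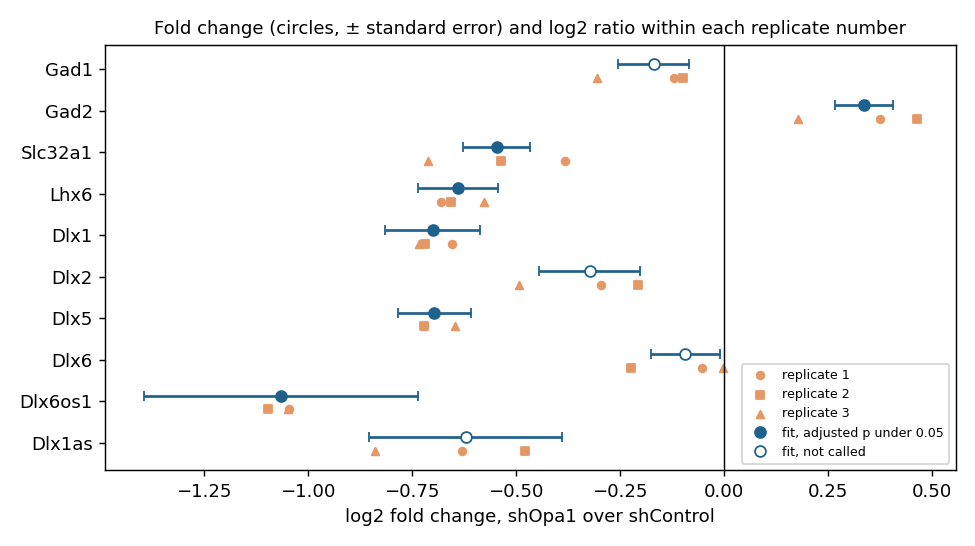
Log2 fold change, shOpa1 over shControl (x axis), of the 8 genes and of the noncoding neighbours Dlx6os1 and Dlx1as. Blue circles show the edgeR estimate ± its standard error, filled where the adjusted p is under 0.05, and orange symbols the log2 ratio within each replicate number. Dlx1, Dlx5 and Lhx6 lie between -0.70 and -0.64, Dlx6 lies at -0.09, and Gad2 stands alone to the right of 0.

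A noncoding gene overlaps Dlx1 at one pair and Dlx6 at the other. Dlx6os1, also known as Evf2, is transcribed across an ultraconserved enhancer of the Dlx5 and Dlx6 region and is known from mouse work to act on those genes. Dlx6os1 (ENSMUSG00000090063, chromosome 6 from 6820189 to 6871592, minus strand, the longer of 2 genes with that symbol) had 67.6, 60.6 and 34.7 CPM in shOpa1, against 139.5, 129 and 71.6 CPM in shControl. The groups did not overlap, though the level in shControl replicate 3 was close to that of shOpa1 replicate 1, yet within replicate numbers the log2 ratio was -1.04, -1.09 and -1.05. The fitted log2 change was -1.06, SE 0.329 (edgeR adjusted p = 0.0435), and the adjusted p was 2.09e-08 with the replicate block. Without shOpa1 replicates 1, 2 or 3 the adjusted p was 0.0573, 0.0944 and 0.0854, and without shControl replicates 1 or 2 it was 0.118 and 0.112. Its windows are shown because Dlx5 and Dlx6 have none.
Dlx6os1, chr6:6869484-6869783, minus strand: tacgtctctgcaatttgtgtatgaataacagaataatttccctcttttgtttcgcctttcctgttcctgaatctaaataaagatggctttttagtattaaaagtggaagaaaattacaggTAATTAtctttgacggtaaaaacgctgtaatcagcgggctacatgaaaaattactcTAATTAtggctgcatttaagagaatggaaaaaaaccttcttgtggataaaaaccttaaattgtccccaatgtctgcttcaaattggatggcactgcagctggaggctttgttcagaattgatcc
Dlx6os1, chr6:6861634-6861933, minus strand: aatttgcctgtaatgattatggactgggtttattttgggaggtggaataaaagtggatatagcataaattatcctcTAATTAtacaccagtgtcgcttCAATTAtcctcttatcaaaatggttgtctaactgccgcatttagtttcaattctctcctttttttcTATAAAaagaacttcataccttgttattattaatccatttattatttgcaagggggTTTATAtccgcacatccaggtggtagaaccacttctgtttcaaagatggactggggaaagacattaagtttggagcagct
The first window has 2 TAATTA matches and the second 1 TAATTA, 1 TAATTG and 2 TATAAA matches. TAATTA is in 5.29% of all windows. These windows have a GC content of 35.7 and 35.3%. At the other pair Dlx1as, an antisense transcript, had 6.12, 7.65 and 4.25 CPM in shOpa1, against 9.47, 10.7 and 7.60 CPM in shControl, and shares 335 exon bases with Dlx1. The count of Dlx1as did not pass the test at a log2 fold change of -0.62 (edgeR adjusted p = 0.0699), but did with the replicate block (adjusted p = 0.000454). Reads were counted without a strand option, so reads in those shared bases count for neither Dlx1 nor Dlx1as. In the same way Dlx6 shares 104 exon bases with Dlx6os2, Lhx6 shares 104 with Gm27953, and Dlx6os1 shares 9.49% of its exon bases with other genes, among them Gm27905 and Gm27699 on the opposite strand.

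Other transcription factors of the interneuron lineage were lower in part. Of 16, all of which were tested, 5 were called lower and 0 higher, where 20.0% of all tested genes were lower and 18.9% higher. With the replicate block 10 were called lower and 1 higher, where that fit called 30.7% of tested genes lower and 28.8% higher. Without shOpa1 replicate 1, shControl replicate 1 or shControl replicate 2 the number called was 3, 2 and 1. The median log2 fold change of the 16 was -0.34. Sox6, which acts after LHX6 in medial ganglionic eminence interneurons, fell the most by size of the 5, to 26.2 ± 2.12 CPM in shOpa1, against 70.8 ± 4.55 CPM in shControl (SD, n = 3 each; log2 fold change -1.43, edgeR adjusted p = 6.6e-05). Maf, a factor of somatostatin and parvalbumin interneurons, fell by 1.16 on the log2 scale (adjusted p = 0.0176). Nkx2-1, which induces Lhx6 in progenitors, fell by 0.58 (adjusted p = 0.0205). Maf lost the call without shControl replicate 1 (adjusted p = 0.0546) and without shControl replicate 2 (0.0539). Nkx2-1 lost it without shOpa1 replicate 1 (0.0733), shOpa1 replicate 2 (0.0616) or shControl replicate 2 (0.0546). With the replicate block both were called lower (edgeR adjusted p = 6.67e-08 for Maf and 0.000257 for Nkx2-1).

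Of 8 interneuron surface and migration genes 6 fell and 0 rose, with a median of -0.90, where 20.0% of all tested genes fell and 18.9% rose. Erbb4, the neuregulin receptor of interneurons, had 57.8 ± 14.6 CPM in shOpa1 and 145.5 ± 33.8 CPM in shControl (SD, n = 3 each; log2 fold change -1.33, edgeR adjusted p = 0.00694). Elmo1, which links receptors to Rac signalling in migrating cells, fell by 1.16 (adjusted p = 0.00163), the guidance receptor gene Robo2 by 0.69 (0.00388) and the presynaptic adhesion gene Nrxn3 by 0.58 (0.000301). Of the 11 tested among 12 interneuron subtype markers 4 fell and 2 rose, with Nos1 (nitric oxide synthase) at -1.15, Reln (reelin) at -1.06, Calb1 (calbindin) at -0.88 and Tac1 (substance P precursor) at 0.70. The other calls, named after their values were seen, were Sst (somatostatin) at -1.04 (edgeR adjusted p = 0.0485) and Lamp5 at 0.98. Sst averaged 472 CPM in shOpa1 and 967 CPM in shControl, but Lamp5 only 1.965 CPM in shOpa1 and 0.993 CPM in shControl. Of the subtype markers 3 were called lower without shOpa1 replicate 1 or 2, without shControl replicate 1 or 2 or with scaling by library totals, and 2 with no filter on low counts. Vip was too low to test, and Pvalb, the marker of a class that matures late, had at most 1.19 CPM in any library.

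Genes that recycle GABA or supply glutamate for it moved in both directions. Of 9 tested among 11, 3 fell and 2 rose, with a median of -0.45, and 6 fell and 2 rose with the replicate block. Among all tested genes 20.0% were called lower and 18.9% higher, and with the block 30.7% and 28.8%. The glutamine carriers Slc38a1 and Slc38a2 rose by 0.41 (edgeR adjusted p = 0.00147) and 0.37 (adjusted p = 0.00591) on the log2 scale. Slc38a1 averaged 445 ± 7.93 CPM in shOpa1 and 335 ± 14.1 CPM in shControl (SD, n = 3 each). On the receiving side, of 5 genes for chloride transport and the gephyrin scaffold 2 rose and 0 fell. The fit with the replicate block called all 5, with 3 higher and 2 lower. Among the 2 that rose was Gphn (gephyrin, which anchors GABA-A and glycine receptors) at 0.38 (adjusted p = 0.036). Slc12a2, the chloride importer NKCC1, was at -0.28 (adjusted p = 0.177, and 0.00102 with the replicate block). Nlgn2, an adhesion protein of inhibitory synapses, was at -0.13 (adjusted p = 0.31, and 0.0243 with the block). Leaving out any of shOpa1 replicates 1 to 3 or shControl replicates 1 and 2 took Gphn to an adjusted p between 0.0571 and 0.126.

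**Figure D4:**
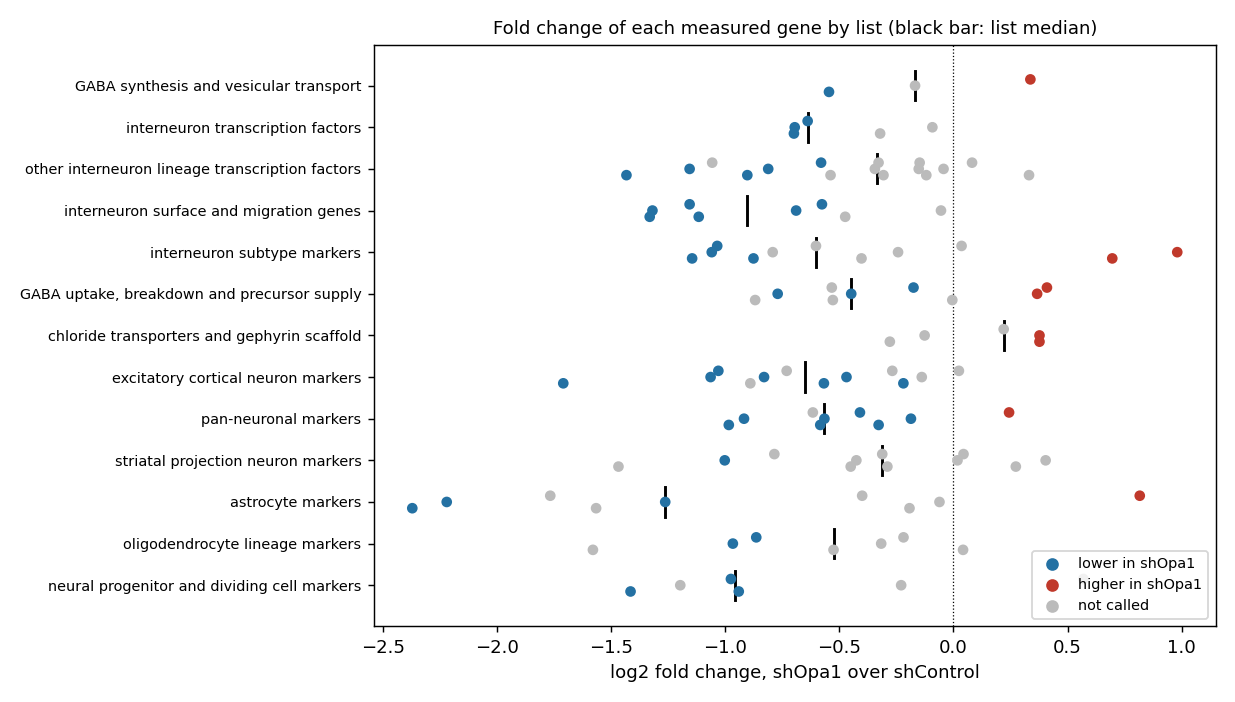
Log2 fold change, shOpa1 over shControl (x axis), of each tested gene in 13 lists, with blue for genes called lower, red for genes called higher and grey for genes not called, and a black bar at each list's median. The interneuron transcription factors have a median of -0.64, close to the -0.65 of the excitatory neuron markers, and the GABA synthesis and transport genes a median of -0.17.

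Most markers of excitatory neurons and of neurons in general were called lower in shOpa1. The share of all tested genes called lower was 20.0%, and the share called higher 18.9%. Of 12 excitatory cortical neuron markers 7 were lower and 0 higher, with a median of -0.65, and their summed level was 658 to 708.5 CPM in shOpa1 and 1074 to 1149 CPM in shControl. Among them Slc17a6 fell by 1.71, Emx1 by 1.06, Cux1 by 1.03 and Cux2 by 0.83. Without shControl replicate 1 or 2, or with scaling by library totals, 4 excitatory markers were called. Of 9 pan-neuronal markers 7 were lower and 1 higher, with a summed level of 6146 to 6558 CPM in shOpa1 and 8966 to 9468 CPM in shControl. Syt1 fell by 0.99, Snap25 by 0.58, Elavl3 by 0.57 and Stmn2 by 0.41. The median of the 8 genes described here was -0.43, against -0.65 and -0.57 for the excitatory and pan-neuronal markers. The summed level of the 8 genes was 1521 to 1761 CPM in shOpa1 and 1872 to 1940 CPM in shControl.

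Of all tested genes 20.0% were called lower and 18.9% higher when no replicate block was used. Striatal projection neurons also use Gad1, Gad2 and Dlx genes. Of their 11 markers 1 was called lower, Meis2 at -1.0 (edgeR adjusted p = 0.000144), and the summed level was 212 to 294 CPM in shOpa1 and 296 to 323 CPM in shControl. With the replicate block 7 were lower, where that fit called 30.7% of tested genes lower. Without shOpa1 replicate 3 or shControl replicate 2 the number of striatal markers called was 3 and 2. The other markers nearest to a call were Adora2a at -1.47, Isl1 at -0.79 and Rgs9 at -0.29. Adora2a averaged only 0.276 CPM in shOpa1 and 0.768 CPM in shControl, and its groups overlapped. Of 9 astrocyte markers 3 were lower and 1 higher, with a summed level of 125 to 189 CPM in shOpa1 and 252 to 426 CPM in shControl, most of it from Slc1a2 (-1.26). S100b fell by 2.22 and Gja1 fell by 2.37, at means under 4 CPM, and Gfap was at 0.82 (edgeR adjusted p = 0.0398), with means of 1.45 CPM in shOpa1 and 0.822 CPM in shControl. Gfap lost the call in 5 of 6 fits that left out a library, all but the one without shOpa1 replicate 1 (adjusted p = 0.0754 to 0.116). DESeq2 called 0 astrocyte markers higher. With the replicate block Gfap was called higher (edgeR adjusted p = 0.00874). Of 7 oligodendrocyte lineage markers tested 2 fell, Mog among them at -0.86. The summed level of the list was 38.4 to 54.8 CPM in shOpa1 and 47.1 to 75.5 CPM in shControl. The uncalled ones with the smallest p were Olig2 at -1.58 and Pdgfra at -0.53. Olig2 had 0.587, 0.822 and 4.52 CPM in shControl replicates 1 to 3, against 0.355, 0.438 and 1.19 CPM in shOpa1. Of 6 progenitor markers tested 3 fell, Sox2, Eomes and Hes5, at -0.98, -0.94 and -1.42, and Top2a stood at -1.20 without a call, with a summed level of 46.6 to 78.7 CPM in shOpa1 and 69.2 to 115.5 CPM in shControl. Hes5 lost the call without shOpa1 replicate 1 (edgeR adjusted p = 0.0501) or shOpa1 replicate 2 (0.0685). With the replicate block it was called lower (edgeR adjusted p = 0.000596). Microglial markers summed to 3.27 to 4.71 CPM in shOpa1 and 5.49 to 7.92 CPM in shControl. Aif1 (-1.0) made up most of it and was the only one of 6 microglial markers high enough to test. Of the other 5, Cx3cr1 averaged 0.267 CPM in shOpa1 and 0.0622 CPM in shControl, and Csf1r 0.340 CPM in shOpa1 and 0.182 CPM in shControl. Endothelial and mural markers, led by Pdgfrb at 0.98, Pecam1 at -0.30 and Rgs5 at 0.07, with 0 called by edgeR or DESeq2 and 0 at an unadjusted p under 0.05, summed to 3.36 to 5.64 CPM in shOpa1 and 3.23 to 3.63 CPM in shControl. The part of these cells in the values of the 8 genes was not tested.

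One sequence feature of the transcripts was looked up because earlier results of these data had picked it out. Genes whose longest 3′ UTR (GENCODE M21, GRCm38) holds the 7-base sequence GAAACTA were called lower in 50.3% of 1334 cases, against 18.7% of the 12516 genes without it. As these data had picked the sequence out, this contrast is not independent support, and 3′ UTR length was not accounted for. The sequence was in the 3′ UTR of 0 of the 8 genes, among them the 4 called lower. Most genes searched lack it (12516, against 1334 that hold it), so 0 of 8 does not set these genes apart. It was present in 2 of 16 other interneuron factors (Sox6 and Zeb2), 1 of 8 surface and migration genes (Robo2), 2 of 11 GABA supply genes (Slc38a2 among them), 0 of 12 excitatory markers and 3 of 9 pan-neuronal markers.

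The genes whose profile over the 6 libraries was most like the mean profile of the 8 were Lrrc24, Slc35e3, Gde1, Kmt5c and Trpc4ap. Likeness was the root mean square distance between log2(CPM + 0.5) values centred on each gene's mean, which was 0.0192 for Lrrc24 and 0.0273 for Trpc4ap, against a median of 0.277 over the 12035 genes searched. All 5 were called lower, at log2 fold changes between -0.38 and -0.31, a direction and size that follow from how they were picked.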

How the data were processed

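RNA from 6 cultures was made into libraries with a stranded mRNA kit, per the labels' protocols. The deposited table holds raw counts per gene. The counts come from featureCounts 1.6.0 run on read pairs against Ensembl 99 gene models of GRCm38, with no strand or multi-overlap option, per the file headers. HISAT2, DESeq2 and mm10 are named in the submitters' processing notes. The authors also deposited a comparison with log2 fold changes, a score (fold change over its error), p-values and a normalised signal, namely counts divided by a size factor per library. It was used only to look up its calls.

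Genes were tested with edgeR 4.0.16 in R 4.3.3, which was checked on simulated data. The steps were TMM scaling, filterByExpr, a robust quasi-likelihood fit and its F test, with group as the sole term. Standard errors are the log2 change over the square root of F, and RPKM is TMM-scaled CPM per kilobase of exon. The deviations of same-numbered libraries from their group means correlated at 0.519, 0.537 and 0.666, which was read as pairing. The members and lists were chosen with earlier results of these data known, and the ratio tests with their alternatives after the values were seen. Named genes were Opa1, the 8 genes, their noncoding neighbours, up to 4 genes with the smallest p in each list and the 5 nearest profiles, and Slc17a7, Sst, Lamp5, Vip, Pvalb, Cx3cr1, Csf1r and Zeb2 fall outside this rule. Some genes of the lists are counted but not reported here by name. Dlx6os1, Maf, Zeb2, Gphn, Nrxn3, Elmo1, Reln, Nos1, Cux1, Elavl3, Slc1a2, Pdgfra, Top2a, Csf1r, Cx3cr1, Eomes and Hes5 share exon bases with another gene, so their counts are less certain. Alternatives were other scalings (RLE or library totals), other filters, DESeq2 1.42.0, the replicate block, replicate 3 as a second batch and left-out libraries.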

Additional observations from a re-analysis of the deposited data

How the results depend on the processing

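Slc32a1, Dlx1, Dlx5, Lhx6 and Gad2 kept their direction and call under all 14 alternatives (other scalings, filters, DESeq2, the replicate block, a second batch and left-out libraries). The number called among the 8 ran from 5 to 7. Gad1 was called in 2 of the 14, the block and the second batch, and Dlx2 in 3, these and replicates 1 and 2 alone. Scaling by totals raised the median of all genes by 0.12, turned Dlx6 to 0.031, and gave 4 excitatory markers in place of 7 and 0 noncoding neighbours in place of 1. The replicate block called 9851 genes in place of 6442, 11 other interneuron factors in place of 5, 8 GABA supply genes in place of 5, 5 chloride and gephyrin genes (3 higher and 2 lower) in place of 2, 2 noncoding neighbours, 7 striatal markers in place of 1 and 8 astrocyte markers in place of 4. With replicate 3 as a second batch the counts were 10 other factors, 8 GABA supply genes, 2 noncoding neighbours, 7 striatal and 7 astrocyte markers. That fit called 4832 of all 16562 tested genes lower and 4521 higher, in place of 3312 and 3130. In replicates 1 and 2 alone the list counts were 10 other factors, 8 GABA supply genes, 2 noncoding neighbours and 4 striatal markers. There 4353 of all 16702 tested genes were called lower and 4143 higher. Whether the lists gained more calls than all genes did was not tested. No filter gave 3 other factors and 2 noncoding neighbours, and DESeq2 gave 2 noncoding neighbours. With 1 library left out the number called ran from 1 to 7 for other factors, from 1 to 2 for chloride and gephyrin genes, from 0 to 1 for noncoding neighbours, from 4 to 7 for excitatory, from 1 to 3 for striatal, from 1 to 2 for oligodendrocyte and from 0 to 1 for endothelial and mural markers. Rgs5 then ran from -0.24 to 0.36, being -0.061 without shControl replicate 3, and Top2a ran from -1.75 to 1.23 and was 0.92 in replicates 1 and 2. The ratio differences ran over left-out libraries from -0.59 to -0.44 for Gad1 to Gad2, from 0.80 to 0.95 for Gad2 to Slc32a1, from -0.41 to -0.32 for Dlx1 to Dlx2 and from 0.55 to 0.67 for Dlx6 to Dlx5. Their value with the replicate block is the same by arithmetic. The cause of these shifts was not tested. Having 3 libraries in a group and bulk RNA limits all values, and no interneuron count per culture was analysed here.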

Other observations

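Gad1os, an antisense neighbour of Gad1, was too low to test, at 0.290, 0.292 and 0.183 CPM in shOpa1 and 0.964, 0.336 and 0.593 CPM in shControl.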
